A study of Mus musculus with 18 samples.

Results

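MHC class II molecules display peptides taken up from outside the cell, or made in its endosomes, to CD4 T cells. The 10 mouse genes described here include H2-Aa, H2-Ab1 and H2-Eb1, which encode class II chains and are called the displayed chains below. RNA alone was measured, so whether any chain was displayed at the cell surface was not tested. The others encode the invariant chain (Cd74), the master co-activator (Ciita), the peptide loading factor H2-DM (H2-DMa, H2-DMb1, H2-DMb2) and its modulator H2-DO (H2-Oa, H2-Ob). They were chosen by name, and all 10 were found among the 32328 genes of the deposited expression table. All 10 also passed the filter on low values, which asked for 3 or more libraries at a level of 1 or above, and so stood among the 16157 genes tested.

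The study sequenced total RNA from Ly6G+ sorted neutrophils of adult C57BL/6 mice aged 8 to 12 weeks, with 3 libraries from each of 6 sources and 18 in all. The sources were bone marrow (BM), Blood, Spleen, Lung, Intestine (the colon) and Skin (the ear), and the labels give no treatment and no genotype beyond the strain. Gates used CD45, CD11b, Ly6G and the dead-cell dye DAPI. The labels do not say whether the 3 libraries of a tissue came from separate mice, from pooled mice or from 1 extract, so the p-values measure the spread between libraries, which may be technical.

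Class II genes are made constitutively by B cells, dendritic cells and many macrophages, and resting neutrophils are known for carrying little of them. CIITA does not bind DNA itself: it docks on a complex of RFX and NF-Y that sits on short promoter elements called the X and Y boxes, and it drives the displayed chains, the invariant chain and H2-DM together. H2-DO is more restricted, and is known chiefly from B cells and some dendritic cells and thymic epithelium. H2-DMb1 and H2-DMb2 both encode a beta chain of H2-DM.

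Promoter windows of 300 bases, from 250 bases before to 50 after the start of transcription, were available from RefSeq (GRCm38.p6) for 7 of the 10 members. The letters GATTGG, a Y box read as an inverted CCAAT, occurred in a window of each of the 7. They occurred in 16.1% of 32851 windows of all genes when both strands were searched. The 7 members had 8 windows, since H2-DMa had 2. Its match lay in the downstream window, 199 bases before the start, and the upstream window had none. The letters AACNNATGATG, an X box core, were taken from what the windows of H2-Eb1, H2-Ob, H2-DMb1 and H2-DMb2 share after these had been read, and were searched on both strands. They occurred in those 4 of the 7 by construction, and in 0.137% of all windows. The 2 motifs share no bases. A match describes the letters only. Stretches from 130 to 30 bases before the start are printed for H2-Aa and H2-Eb1, which rose in tissues, and for H2-Ob and H2-DMb2, whose pattern over the tissues was different, because all 4 carry the Y box and 3 of them the X letters. They read 5′ to 3′ on the gene's strand, with the matched letters in capitals, and lie at chr17:34287853-34287953 (minus strand), chr17:34305737-34305837, chr17:34238775-34238875 and chr17:34145119-34145219 (plus strand) in this order.

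H2-Aa: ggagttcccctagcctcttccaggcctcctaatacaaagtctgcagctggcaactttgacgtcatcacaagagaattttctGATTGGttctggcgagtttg
H2-Eb1: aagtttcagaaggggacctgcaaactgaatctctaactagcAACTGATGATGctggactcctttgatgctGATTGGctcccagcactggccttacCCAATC
H2-Ob: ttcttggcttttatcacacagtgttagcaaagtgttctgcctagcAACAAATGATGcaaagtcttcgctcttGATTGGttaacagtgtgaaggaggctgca
H2-DMb2: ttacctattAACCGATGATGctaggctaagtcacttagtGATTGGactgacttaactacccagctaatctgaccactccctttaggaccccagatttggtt

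The Y box began 49 bases before the start in H2-Aa, 60 in H2-Eb1, 58 in H2-Ob and 91 in H2-DMb2, and H2-Eb1 carried another on the opposite strand, 35 bases before its start. The X letters preceded it, beginning 89 bases before the start in H2-Eb1, 85 in H2-Ob and 121 in H2-DMb2.

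Values are scaled counts: estimated counts divided by the library's size, and not by gene length, so the level of a gene is compared only between libraries. The libraries held 2935580 to 12087900 estimated counts, and Lung replicate 1 was the smallest. The libraries differed in how much of the neutrophil signature they carried. The summed level of 10 neutrophil genes was 28865 to 31080 in Blood and 33666 to 44720 in BM, 10645 to 14945 in the Spleen and 5768 to 18400 in the Lung, but 790.5 to 1070 in the Intestine and 1065 to 20102 in Skin. Ly6g, which encodes the antigen used in the gate, stood at 69.3 to 237 in Blood, at 3.14, 0.410 and 0.346 in the Intestine and at 0.221, 0.216 and 26.9 in Skin, so the value for the gated antigen read below 1 in 4 of these 6 libraries. In Skin replicate 2 the value of 0.216 marks 0 counts, which allows a level of up to 1.51 in that library. One transcript, Gm10800, took 11.2% to 23.7% of the counts in Skin, and the Skin libraries got the lowest weights (0.107 to 0.440) when each library was weighted by its spread. Mitochondrial genes took 8.24% to 23.2% of the counts in the Intestine and 0.209% to 2.87% elsewhere, and the part of these differences in the members' levels was not tested. All tests below are limma's moderated tests on log2(scaled count + 1), adjusted over the 16157 genes, with 12 residual degrees of freedom.

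The displayed chains and the invariant chain were lowest in Blood and highest in Intestine and Skin. H2-Aa (ENSMUSG00000036594, chromosome 17, 34282744 to 34287823 on the minus strand, GRCm38) encodes the alpha chain of the I-A molecule. Its scaled counts were 1.50, 0.708 and 16.3 in Blood, 51.4, 69.2 and 25.1 in BM, 241, 157 and 316 in the Spleen, 447, 197 and 44.9 in the Lung, 881, 397 and 447 in the Intestine and 447, 1177 and 554 in Skin. The 3 Blood libraries lay below every other library, although Blood replicate 3 stood apart from the other Blood libraries, with 156 estimated counts against 12 and 6. On the log scale Lung spread the most among the tissues above Blood, with replicate 3 lowest.

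H2-Ab1 (ENSMUSG00000073421, chromosome 17, 34257689 to 34269419) encodes the I-A beta chain. It stood at 1.02, 2.23 and 2.97 in Blood, 30.6, 46.8 and 6.23 in BM, 134, 81.8 and 174 in the Spleen, 184, 106 and 31.2 in the Lung, 511, 206 and 275 in the Intestine and 314, 208 and 245 in Skin. Blood was again below all others, BM lay between Blood and Spleen without overlap, and the lowest Lung library was at the level of BM. H2-Eb1 (ENSMUSG00000060586, chromosome 17, 34305867 to 34316674), the I-E beta chain, stood at 10.8, 10.1 and 9.43 in Blood, 61.8, 49.0 and 26.3 in BM, 265, 159.6 and 412 in the Spleen, 461, 254 and 39.3 in the Lung, 1259, 592 and 752 in the Intestine and 567, 456 and 694 in Skin. The 3 Blood values differed little, and every Intestine value was above every Spleen and Lung value.

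Cd74 (ENSMUSG00000024610, chromosome 18) encodes the invariant chain, which blocks the peptide groove until the endosome. Its values were 13.8, 13.3 and 30.2 in Blood, 81.5, 189 and 43.0 in BM, 538, 419 and 761 in the Spleen, 948, 489 and 125 in the Lung, 1859, 1091 and 1278 in the Intestine and 767, 3276 and 1088 in Skin. The groups followed those of the displayed chains, and Skin replicate 2 stood far above the other Skin libraries. Between libraries the 4 genes moved together: Pearson's r of their log2 values over the 18 libraries was 0.94 to 0.98 for each of the 6 pairs, as a description of libraries that share tissue, depth and preparation.

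**Figure D1:**
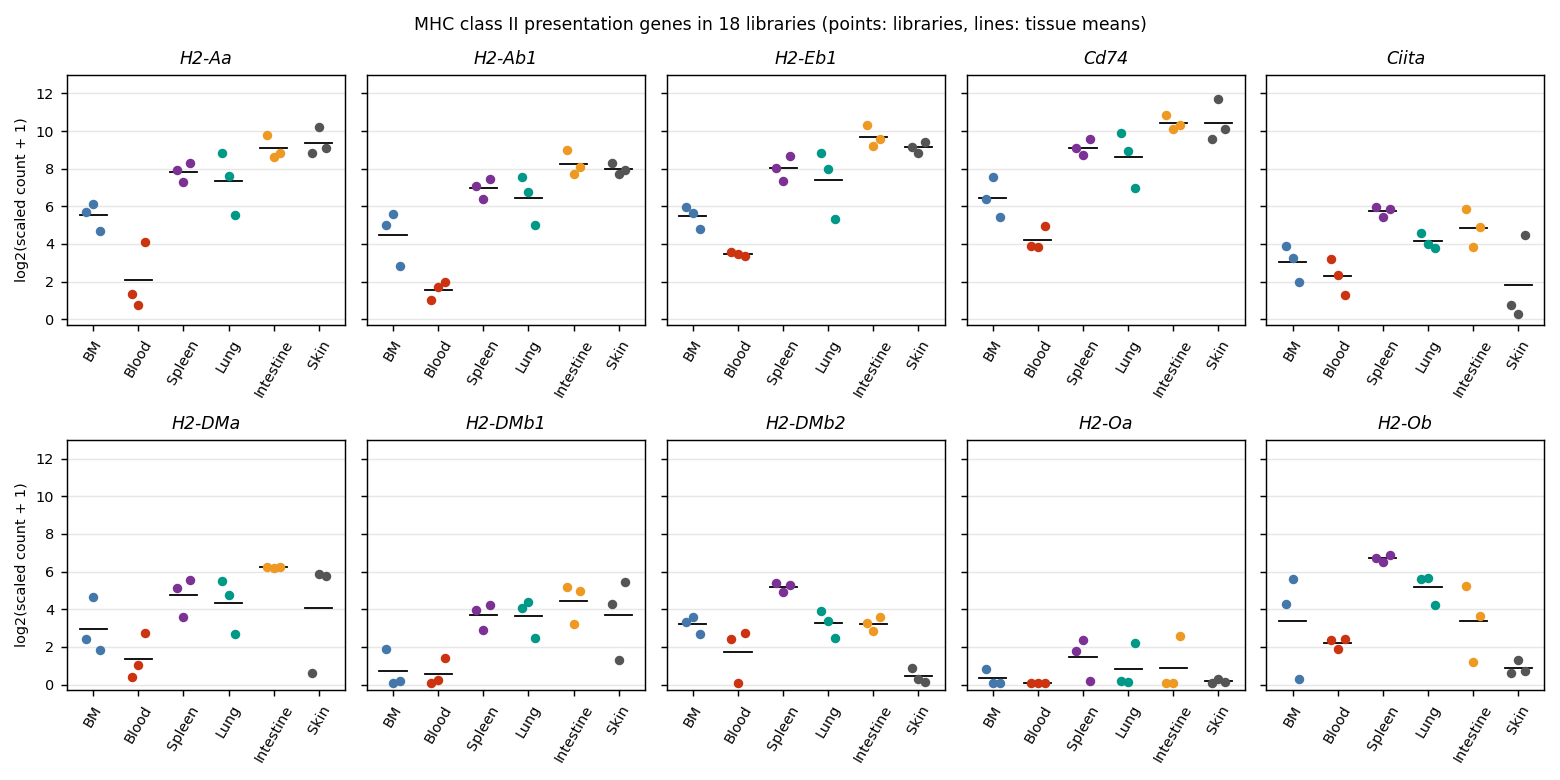
Level of each of the 10 class II genes as log2(scaled count + 1), 1 point for each of the 18 libraries and a line at each tissue's mean on that scale. The first 4 genes are lowest in Blood and high in Intestine and Skin, while H2-Ob and H2-DMb2 are highest in Spleen and lowest in Skin.

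Of the 10 members, 9 passed the F test of any difference between the 6 tissues, against 31.9% of all tested genes. H2-Oa did not pass (adjusted p = 0.494, limma). Where each library was weighted by its spread, all 10 passed, against 51.4% of genes. Fewer cells of a type and less RNA per cell cannot be told apart in these bulk libraries.

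Against Blood, H2-Aa was higher by 5.78 in the Spleen, 5.25 in the Lung, 7.01 in the Intestine and 7.31 in Skin on the log2 scale (SE 0.79 each, n = 3 libraries a tissue), with limma adjusted p-values of 0.0006008, 0.0003071, 3.981e-06 and 5.884e-06. Leaving out Blood replicate 3 moved these to 6.80, 6.27, 8.03 and 8.33, leaving out Blood replicate 2 to 5.13, 4.6, 6.36 and 6.66, and leaving out Lung replicate 1 or 3 moved the Lung value to 4.51 or 6.15. H2-Ab1 was higher by 5.40, 4.86, 6.70 and 6.42 in the same order (SE 0.70), and the Lung value was 5.57 without Lung replicate 3. H2-Eb1 was higher by 4.55, 3.92, 6.22 and 5.67 (SE 0.65), with the Lung value at 3.19 without Lung replicate 1 and 4.95 without Lung replicate 3. Cd74 was higher by 4.89, 4.37, 6.19 and 6.22 (SE 0.66), with Lung at 3.73 and 5.18 without those 2 libraries and Skin at 5.60 without Skin replicate 2. All 16 of these differences passed, the largest limma adjusted p being 0.0007266. The libraries of each of these tissues lay above those of Blood for all 4 genes.

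The counts of members that passed against Blood were 4 of 10 in the Spleen, where 0.477% of tested genes were higher, 4 of 10 in the Lung (5.27% of genes), 6 of 10 in the Intestine (15.8%) and 5 of 10 in Skin (5.64%), all higher. In BM 0 members passed at an adjusted p of 0.05 in limma, where 0.204% of genes were called in either direction. With a weight per library 4 passed in BM, all higher, where 2.05% of genes were higher. Without overlap in the scaled counts, 10 members lay above Blood in Spleen (13.5% of genes), 8 in the Lung (17.6%), 8 in the Intestine (26.0%) and 5 in Skin (16.5%), where the Skin count includes H2-Oa, whose Blood and Skin libraries all had 0 counts. The Lung count includes H2-Oa too, with 0, 1 and 32 counts in the 3 Lung libraries, so for replicate 1 the scaled value lay above Blood through library size alone. H2-Ob lay below Blood in Skin without overlap, as did 17.7% of genes. The median log2 difference of the 10 members against Blood was 3.97 in the Spleen, 3.02 in the Lung, 4.38 in the Intestine, 2.92 in Skin and 1.52 in BM, beside 0.03, 0.03, 0.12, -0.26 and 0.00 for all tested genes. The wide spread of the Skin libraries enters the error of every contrast. With a weight per library 10 members were higher in Spleen (7.28% of genes), 8 in the Lung (18.3%), 9 in the Intestine (27.0%), 4 in Skin (2.74%) and 4 in BM (2.05%). Without the Skin libraries 9 were higher in Spleen (1.73% of genes) and 3 in BM (1.26%), and leaving out Skin replicate 2 alone gave 7 in the Spleen (1.09%) and 2 in BM (0.514%).

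In BM the displayed chains and Cd74 stood above Blood in every library, but their differences did not pass: 3.45 for H2-Aa, 2.91 for H2-Ab1, 1.99 for H2-Eb1 and 2.23 for Cd74, with limma adjusted p-values of 0.08672, 0.09945, 0.3358 and 0.2318. These 4 were the non-overlapping members, where 9.37% of tested genes lay higher without overlap. With a weight per library they were 3.29, 2.65, 1.99 and 1.94, and all 4 passed (largest adjusted p = 0.009626, limma).

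**Figure D2:**
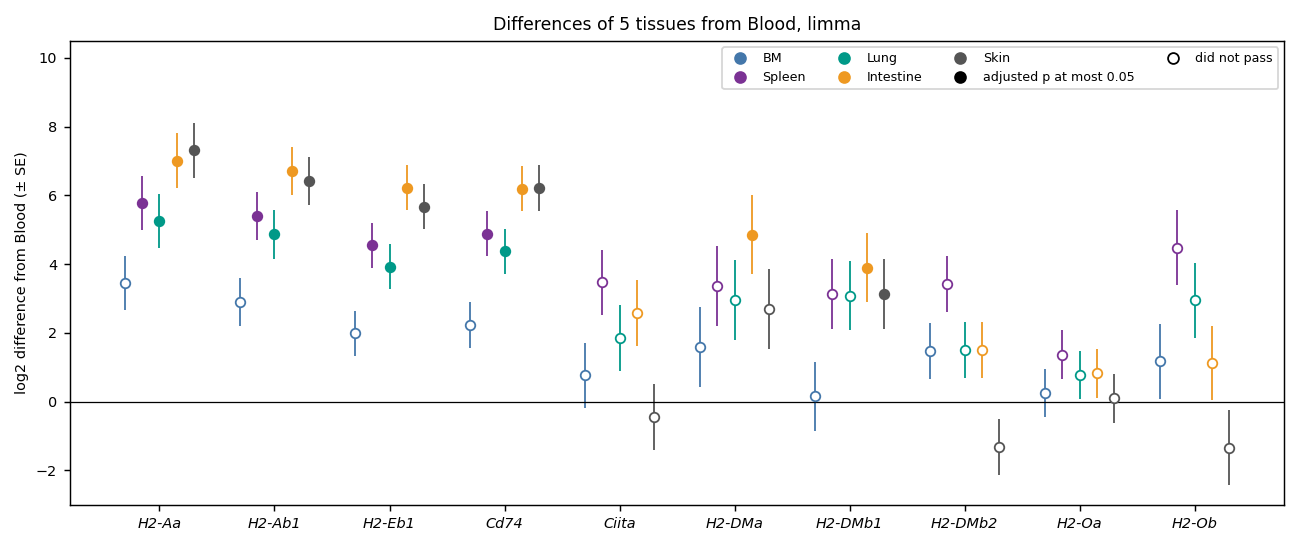
Log2 difference of BM, Spleen, Lung, Intestine and Skin from Blood for each member, with bars of 1 standard error from limma; filled points had an adjusted p of at most 0.05 and open points did not pass. The 4 genes on the left pass in 4 tissues and rise to 7.31, while H2-DMb2, H2-Ob and Ciita in Skin lie below 0 without passing.

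Ciita (ENSMUSG00000022504, chromosome 16, 10480059 to 10528418) had a different order of tissues from the genes it is known to drive. Its scaled counts were 8.26, 4.15 and 1.43 in Blood, 13.7, 8.66 and 2.99 in BM, 60.6, 42.7 and 57.6 in the Spleen, 23.4, 15.2 and 12.7 in the Lung, 56.0, 13.1 and 29.4 in the Intestine and 0.671, 0.216 and 21.3 in Skin. Spleen was the highest group on average, and Skin replicates 1 and 2, with 4.06 and 0 estimated counts, were the lowest libraries of all although their displayed chains were among the highest. Across libraries its r with H2-Aa was 0.28, with H2-Ab1 0.39, with H2-Eb1 0.40 and with Cd74 0.30, against 0.73 with H2-Ob and 0.70 with H2-DMb2.

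Against Blood, Ciita differed by 3.47 ± 0.95 (SE) in Spleen (adjusted p = 0.1226, limma) and 2.57 in the Intestine (0.05155), neither of which passed, and both passed with a weight per library (0.0001296 and 0.001839). In Skin the difference was -0.45, and it was 0.52 with a weight per library, 0.01 without Blood replicate 1, 0.09 without Skin replicate 1 and 0.32 without Skin replicate 2. Ciita was higher in Spleen than in Skin by 3.92 (adjusted p = 0.01035, limma), which passed with each library left out in turn (3.15 without Skin replicate 2 and 5.24 without Skin replicate 3) but not with a weight per library (0.1354). Its Intestine to Skin difference of 3.02 (0.03217) did not pass in 8 of 15 alternatives, among them leaving out Skin replicate 1 or 2 or Intestine replicate 1 or 3, and was 2.25 without Skin replicate 2 and 4.34 without Skin replicate 3. Ciita shares 329 exonic bases with Dexi on the opposite strand, and since strand use in the counting is not given in the sources used here, reads of the 2 genes there cannot be told apart.

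H2-DM swaps the invariant chain remnant for peptide in the endosome. The alpha chain gene, H2-DMa (ENSMUSG00000037649, chromosome 17, 34119541 to 34139101), stood at 0.299, 1.03 and 5.68 in Blood, 4.33, 24.2 and 2.56 in BM, 33.8, 11.2 and 45.2 in the Spleen, 44.6, 26.4 and 5.56 in the Lung, 75.8, 72.2 and 76.0 in the Intestine and 0.515, 56.9 and 54.0 in Skin. The Intestine libraries were close together and above all others, and Skin replicate 1, with 3 estimated counts, stood apart below the other Skin libraries. H2-DMa was higher in Intestine than in Blood by 4.86 ± 1.16 (SE) (adjusted p = 0.003562, limma), or by 5.54 without Blood replicate 3. Its differences of 3.37 in the Spleen, 2.95 in the Lung and 2.70 in Skin did not pass. H2-DMa was also higher in Intestine than in BM by 3.27 (0.04475), a call that did not pass in 7 of 16 alternatives. Of the 6 left-out libraries only BM replicate 2 left it in place, with the value at 4.12. It overlaps Brd2 by 360 exonic bases on the opposite strand.

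H2-DMb1 (ENSMUSG00000079547, chromosome 17, 34153072 to 34160230) and H2-DMb2 (ENSMUSG00000037548, chromosome 17, 34143307 to 34151555) are neighbours with similar sequence: 19.2% of the 61-base words of H2-DMb1 transcripts and 20.6% of those of H2-DMb2 also occur in transcripts of other genes, those of H2-DMb1 only in H2-DMb2. Their separate values are therefore uncertain. H2-DMb1 stood at 0.0598, 0.163 and 1.61 in Blood, 2.66, 0.0571 and 0.151 in BM, 14.7, 6.43 and 17.6 in the Spleen, 15.8, 19.9 and 4.53 in the Lung, 35.5, 8.27 and 30.8 in the Intestine and 18.7, 1.51 and 42.7 in Skin, where a value such as 0.0598 marks a library with 0 counts. Blood and BM were low, Spleen, Lung and Intestine were above all Blood libraries, and Skin replicate 2, with 3 counts, overlapped Blood.

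H2-DMb1 was higher than in Blood by 3.90 ± 1.01 (SE) in Intestine (adjusted p = 0.006316, limma; 4.53 without Intestine replicate 2) and by 3.13 in Skin (0.03799). The Skin call did not pass in 9 of 15 alternatives, including 5 of the 6 with a library left out, where it ranged from 2.25 without Skin replicate 3 to 4.31 without Skin replicate 2. Of the 6 left-out libraries only Skin replicate 2 left the call in place. Against BM it was higher by 3.75 in the Intestine (0.00898), or 4.37 without Intestine replicate 2, and by 2.98 in Skin (0.04454), which did not pass in 8 of 15 alternatives, among them leaving out BM replicate 2 or 3 or Skin replicate 1 or 3, and was 2.10 without Skin replicate 3 and 4.16 without Skin replicate 2.

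H2-DMb2 had another pattern. It stood at 4.30, 0.0544 and 5.77 in Blood, 9.19, 11.2 and 5.38 in BM, 40.5, 29.0 and 37.4 in the Spleen, 14.1, 9.23 and 4.55 in the Lung, 8.82, 6.18 and 10.9 in the Intestine and 0.851, 0.216 and 0.0930 in Skin. Every Spleen library was above every other library, and the Skin libraries held 5.28, 0 and 0 estimated counts. None of its differences from Blood passed, the largest being 3.43 in the Spleen (adjusted p = 0.05667, limma). It was higher than in Skin by 4.75 in the Spleen (0.0008802), 2.82 in the Lung (0.03392) and 2.81 in the Intestine (0.021), and it differed by -2.78 in Skin against BM (0.02224). The Spleen call passed in 14 of 15 alternatives and with each of 6 libraries left out, whereas the Lung, Intestine and BM calls failed in 7, 6 and 5 of 15. The Lung call was lost without Lung replicate 1 or 2 or Skin replicate 2, the Intestine call without Intestine replicate 1 or 3, and the BM call without BM replicate 1 or 2. Summed over the libraries of a tissue and divided by their sizes, H2-DMb2 in the Spleen was 102 times that in Skin. The exact 95% interval of 43.8 to 316 treats rounded estimates as counts and covers counting error only. It leaves out the uncertain assignment of reads between H2-DMb1 and H2-DMb2, and all Skin counts came from replicate 1.

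H2-DO inhibits H2-DM. Its beta chain gene H2-Ob (ENSMUSG00000041538, chromosome 17, 34238903 to 34254414) stood at 4.25, 2.67 and 4.32 in Blood, 18.1, 48.2 and 0.242 in BM, 105, 89.5 and 116 in the Spleen, 48.5, 48.9 and 17.9 in the Lung, 37.0, 1.29 and 11.3 in the Intestine and 0.515, 1.51 and 0.651 in Skin. Spleen was above all others, the Lung libraries above all Blood libraries, and BM and Intestine each had a library near the level of Skin. Each Skin library held 3 estimated counts, the limit that a count of 0 allows, so Skin stood at the limit of detection while H2-Aa held 8731 counts over the same libraries.

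H2-Ob was higher than in Skin by 5.82 ± 1.09 (SE) in Spleen (adjusted p = 0.001769, limma) and by 4.29 in the Lung (0.01657), and higher in Spleen than in Intestine by 3.35 (0.0358). The first passed in 14 of 15 alternatives and with each of 6 libraries left out. The second did not pass in 5 of 15, among them leaving out Lung replicate 1 or 2, and the third in 8 of 16, among them leaving out any Spleen library or Intestine replicate 2 or 3. The Spleen to Intestine value was 4.29 without Intestine replicate 1 and 2.27 without Intestine replicate 2. From summed counts, the ratio to Skin was 165 in the Spleen, with an exact 95% counting interval of 86.8 to 361, and 61.0 in the Lung, with 32.0 to 134. Against Blood the differences were 4.47 in the Spleen (adjusted p = 0.06597, limma) and 2.94 in the Lung (0.1235), which did not pass, and both passed with a weight per library (0.0001158 and 0.002845).

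H2-Oa (ENSMUSG00000024334, chromosome 17, 34092340 to 34095234), the H2-DO alpha chain gene, was near 0 throughout. Its highest values were 4.95 in Intestine replicate 3, 4.11 in Spleen replicate 2, 3.65 in Lung replicate 3 and 2.43 in Spleen replicate 1. All Blood and Skin libraries had 0 counts, which allows up to 0.255 to 1.51 on the scaled count axis over the 18 libraries, the highest limit being that of Skin replicate 2. Spleen differed from Blood by 1.36 without passing (adjusted p = 0.7327, limma), and with a weight per library by 1.73 (0.02876). It overlaps BC051537 on the opposite strand by 321 exonic bases.

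The order of the tissues differed between the members. By mean scaled count, H2-Aa and Cd74 ran from Skin and Intestine through Spleen, Lung and BM to Blood, and H2-Ab1 and H2-Eb1 had Intestine before Skin in the same order. Neighbours in these orders gave no call for these 4 genes: the smallest limma adjusted p was 0.05807 (Cd74, Lung against BM), followed by 0.08672 (H2-Aa, BM against Blood). Spleen and BM, 2 places apart, did not pass either (smallest adjusted p = 0.1006, Cd74, limma). All 4 were higher in Intestine than in BM, by 3.56 for H2-Aa, 3.80 for H2-Ab1, 4.23 for H2-Eb1 and 3.96 for Cd74 (largest adjusted p = 0.00222, limma), and in Skin than in BM, by 3.86, 3.51, 3.68 and 3.99 (largest adjusted p = 0.002212). The Intestine calls passed in all 16 alternatives. The Skin calls of all 4 failed with only the libraries compared (limma adjusted p = 0.07042, 0.1549, 0.05994 and 0.09869), and H2-Aa failed also with a weight per library (0.05388). Leaving out BM replicate 3 moved H2-Ab1 to 2.99 in the Intestine and 2.70 in Skin, and leaving out Skin replicate 2 moved Cd74 in Skin to 3.37.

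Between Lung and Intestine, H2-Eb1 alone was called, lower in Lung with a difference of -2.30 (adjusted p = 0.0352, limma). It did not pass when any 1 of the Intestine libraries or Lung replicate 3 was left out. Without Lung replicate 3 it was -1.27 (0.2682), and without Lung replicate 1 it was -3.03. H2-Ob, H2-DMb2 and Ciita began with Spleen and ended with Skin or Blood. In the 10 pairs of tissues without Blood, 21 member differences passed, 6 in the Intestine against BM (14.7% of tested genes higher), 6 in Skin against BM (17.5% in either direction), of which 5 were higher (6.52%) and 1 lower, 3 in Spleen over Skin (9.18%), 2 each in Lung over Skin (6.28%) and Intestine over Skin (12.9%), and 1 each in Spleen over Intestine (6.91%) and Lung under Intestine (3.42%). None passed in limma in Spleen against BM (0.297% of genes in either direction), Lung against BM (6.18%) or Spleen against Lung (4.46%). With a weight per library 34 passed, of which 7 were in Spleen over BM (2.07% of genes). More of all genes were called with weights too, 51.4% against 31.9% by the F test.

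Because B cells, macrophages and dendritic cells make class II, the members were set beside marker lists of these cells in each library. The summed level of 14 B cell markers was 2566 to 4682 in the Spleen, 365 to 1114 in the Lung, 217 to 834 in BM, 195 to 364 in the Intestine, 169 to 756 in Skin and 129 to 209 in Blood, where Blk had 0 counts. Of the 14, 10 were higher in Spleen than in Blood (0.477% of all tested genes) and 4 in the Lung (5.27%). In the Intestine 2 were higher (15.8% of genes) and 1 lower (10.1%). In Skin 0 were higher (5.64%) and 1 lower (10.4%). The Intestine and Skin counts were no more than those shares. Pax5, the transcription factor that holds B cell identity, stood at 336, 226 and 288 in the Spleen and at 4.64, 1.95 and 0.651 in Skin. Cd79a, a chain of the B cell receptor complex, stood at 162, 136 and 323 in the Spleen and at 0.515, 1.95 and 2.51 in Skin.

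The summed level of 14 macrophage markers was 1112 to 1756 in the Intestine and 1197 to 3299 in Skin, against 312 to 710 over the other 4 tissues. Of the 14, 5 were higher than in Blood in Intestine (15.8% of all tested genes) and 7 in Skin (5.64%). In BM, Spleen and Lung 1 each was higher, beside 0.204% of genes in either direction, 0.477% higher and 5.27% higher. C1qa, a complement component made by tissue macrophages, stood at 106, 40.2 and 85.5 in the Intestine, 7.14, 4.54 and 81.8 in Skin and at most 0.272 in Blood. Not every marker passed: Csf1r was 313 to 522 in Blood and 252 to 345 in the Intestine, and Csf1r and Adgre1 had limma adjusted F test p-values of 0.1052 and 0.4041. The summed level of 10 dendritic cell markers was 203 to 387 in Skin, 69.8 to 198 in the Intestine, 42.3 to 119 in the Lung and 5.13 to 44.7 over BM, Blood and Spleen. Of the 9 dendritic cell markers tested, 2 were higher than in Blood in Skin (5.64% of all tested genes) and 3 in the Intestine (15.8%). Cd209a stood at 38.9, 43.9 and 69.3 in Skin and at most 1.72 in Blood, while Flt3 and Zbtb46 did not pass the F test (limma adjusted p = 0.4116 and 0.7566). What part these cells had in the members' levels was not tested.

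**Figure D3:**
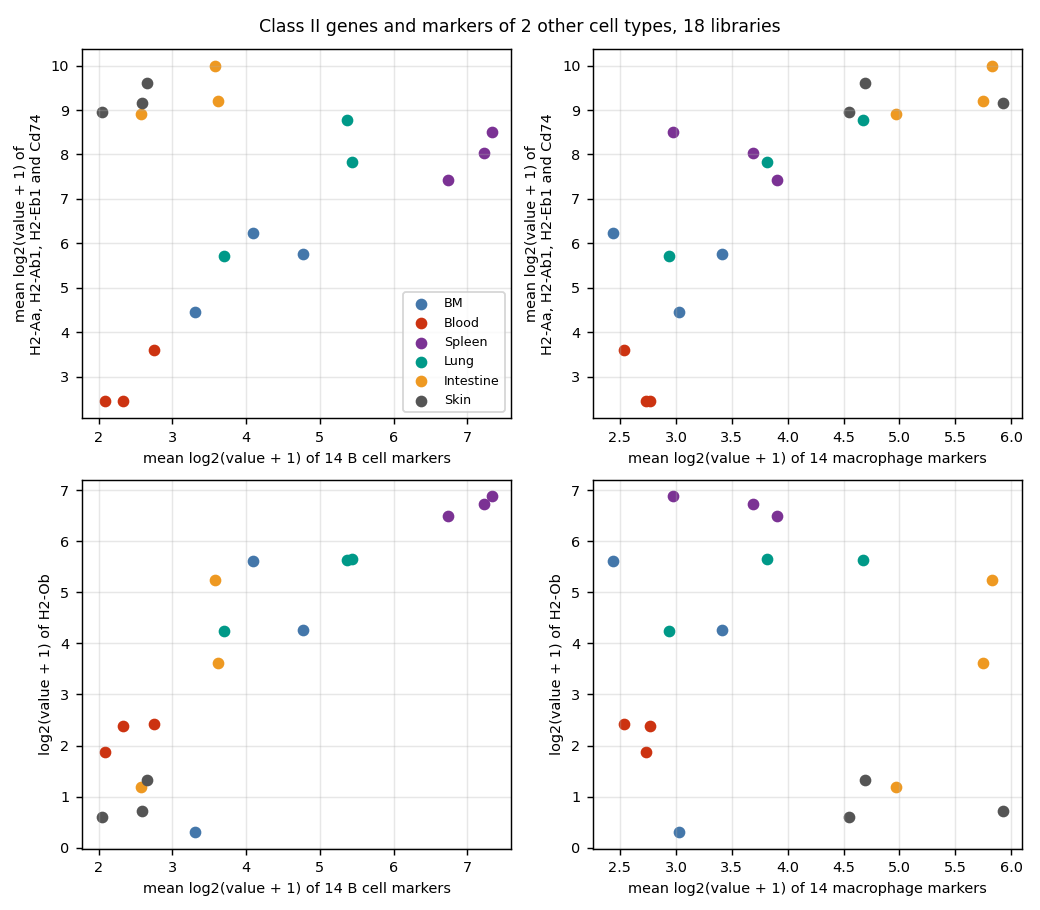
Each point is a library: the mean log2(scaled count + 1) of H2-Aa, H2-Ab1, H2-Eb1 and Cd74 (upper panels) or H2-Ob (lower panels) against the mean of 14 B cell markers (left) or 14 macrophage markers (right). The upper genes are high in Skin and Intestine libraries that are low in B cell markers, while H2-Ob is highest in the Spleen libraries, whose B cell mean is 6.74 to 7.33.

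Across tissues the displayed chains with Cd74, taken as their mean log2 value, ran with macrophage and dendritic cell markers, and H2-Ob with B cell markers. Over the 18 libraries the mean of the 4 genes had a Pearson's r of 0.27 (Spearman's rho 0.04) with the B cell list, 0.80 (0.87) with the macrophage list, 0.73 (0.80) with the dendritic cell list and -0.72 (-0.78) with the neutrophil list. Without the Spleen libraries the r with the B cell and macrophage lists was 0.21 and 0.87. Without Spleen and Skin it was 0.52 (rho 0.47) and 0.88 (0.83), so the low value for the B cell list depended on the Skin libraries. H2-Ob had an r of 0.88 (rho 0.89) with the B cell list and -0.16 with the macrophage list, and H2-DMb2 0.86 and -0.17. Without Spleen and Skin these were 0.77 and 0.23 for H2-Ob and 0.70 and 0.44 for H2-DMb2. The negative values for the macrophage list thus depended on the tissues included. Ciita had 0.70 and 0.26 over the 18 libraries, but 0.46 and 0.82 without Spleen and Skin. As deviations from the tissue means it had 0.38 and 0.64, or 0.54 and 0.44 without Skin. Its order of the 2 lists thus depended on the libraries included. H2-DMa had 0.35 and 0.62 and H2-DMb1 0.32 and 0.76, which put the 2 with the displayed chains. A list of 10 T cell markers had an r of 0.65 with H2-Ob, 0.71 with H2-DMb2 and 0.67 with Ciita over the 18 libraries. Across tissues these genes thus did not run with the B cell list alone. As deviations from the tissue means, the r with the T cell list was -0.06, 0.35 and 0.20. These are descriptions of 18 libraries that fall into 6 tissue clusters and share depth, so they largely compare tissues.

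Pooled over tissues, deviations from the tissue means put the 2 lists the other way, but single tissues differed. As deviations from the tissue means, the 4 genes had an r of 0.84 (rho 0.79) with the B cell list and 0.33 (0.13) with the macrophage list, and without Skin 0.85 and 0.41. In Spleen their mean was 8.03, 7.43 and 8.51 in replicates 1, 2 and 3, where the B cell mean was 7.22, 6.74 and 7.33 and the macrophage mean 3.69, 3.90 and 2.98, the reverse order. In Lung all 3 were lowest in replicate 3: the 4 genes were at 8.77, 7.83 and 5.71, the B cell list at 5.37, 5.44 and 3.70 and the macrophage list at 4.67, 3.81 and 2.94. There the 4 genes ranked the replicates as the macrophage list did, while the B cell list was highest in replicate 2. In Intestine the 4 genes were at 9.99, 8.91 and 9.20, with the B cell list at 3.58, 2.57 and 3.62 and the macrophage list at 5.83, 4.97 and 5.75, so both lists were lowest in the library where class II was lowest. The ranking of the 4 genes was again that of the macrophage list, while the B cell list was highest in replicate 3. In Skin the 4 genes were at 8.96, 9.60 and 9.15, beside 2.04, 2.65 and 2.59 for B cell and 4.55, 4.69 and 5.92 for macrophage markers. Their ranking there was that of the B cell list. In BM they were at 5.76, 6.23 and 4.45, beside 4.77, 4.09 and 3.315 for B cell and 3.41, 2.43 and 3.02 for macrophage markers. In Blood they were at 2.45, 2.44 and 3.61, beside 2.33, 2.09 and 2.75 for B cell and 2.77, 2.73 and 2.53 for macrophage markers.

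The gap between the 4 genes and the B cell list was 0.69 to 1.18 log2 units in Spleen, 2.01 to 3.40 in the Lung, 5.58 to 6.40 in the Intestine and 6.56 to 6.95 in Skin, with no overlap between these tissues. In BM the gap was 0.98 to 2.14, which overlapped Spleen and Lung, and in Blood it was 0.11 to 0.86, which overlapped Spleen. The gap to the macrophage list was 3.53 to 5.53 in the Spleen, 2.77 to 4.10 in the Lung, 3.45 to 4.16 in the Intestine and 3.23 to 4.92 in Skin, and these 4 tissues overlapped. It was 1.42 to 3.80 in BM, and in Blood it was -0.32 to 1.08, below every other library. The values of the 2 lists are means of different genes, so only their change between libraries can be read.

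Ratios between members within a library use no marker, and they did not follow the B cell markers in every tissue. H2-Ob as a percentage of H2-Ab1, in scaled counts, was 78.2, 109 and 66.9 in the Spleen, 26.3, 46.1 and 57.5 in the Lung, 7.23, 0.624 and 4.11 in the Intestine and 0.164, 0.730 and 0.265 in Skin. Spleen lay above Lung and Lung above Intestine without overlap, and only Intestine replicate 2 reached the range of Skin. In BM it was 59.1, 103 and 3.88. In Blood, where the summed B cell markers were 129 to 209, it was 418, 120 and 146, above every other library, on 35, 24 and 41 H2-Ob counts and 8, 20 and 28 H2-Ab1 counts. The Skin values rest on 3 H2-Ob counts in each library. H2-DMb2 as a percentage of the H2-DMb1 and H2-DMb2 counts together was 73.4, 81.9 and 68.0 in the Spleen, 47.2, 31.6 and 50.1 in the Lung, 19.9, 42.7 and 26.1 in the Intestine, 4.0, 0 and 0 in Skin and 77.8, 100 and 98.1 in BM. Spleen and BM thus held mostly H2-DMb2 and Skin mostly H2-DMb1, within the limit that the 2 genes share sequence and that Skin replicate 2 had 3 counts in all. In Blood it was 100, 0 and 78.5, with H2-DMb1 at 0, 1 and 15 counts.

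**Figure D4:**
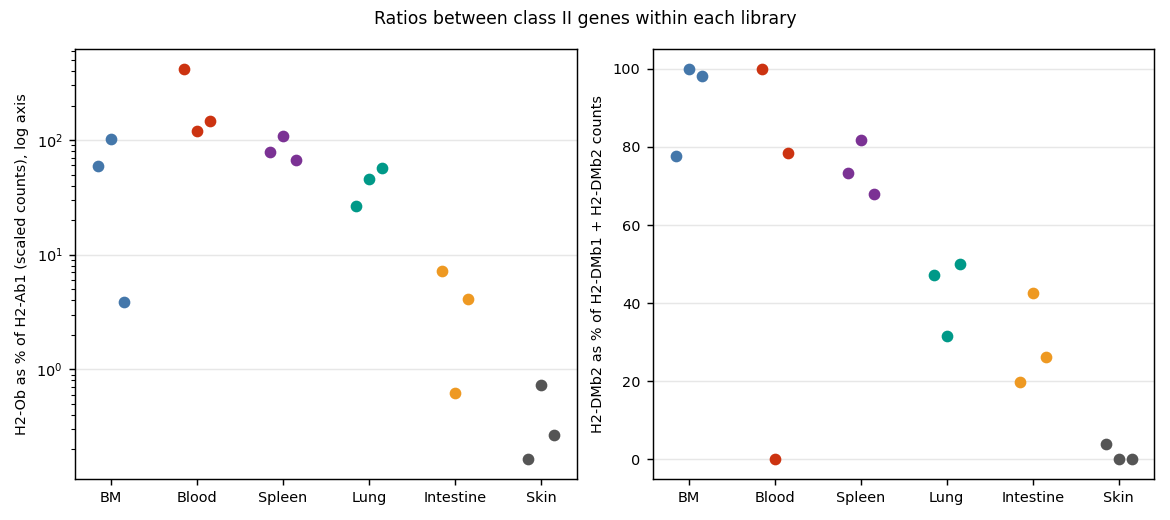
Left: H2-Ob as a percentage of H2-Ab1 on a log axis. Right: H2-DMb2 as a percentage of the H2-DMb1 and H2-DMb2 counts, with 1 point for each of the 18 libraries in both; Spleen stays at 66.9 to 109 on the left and 68.0 to 81.9 on the right, and Skin at 0.730 and 4.0 or less.

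Other genes of the pathway were taken as a list of 29 regulators, proteases, turnover factors and co-stimulatory ligands, of which 28 were in the table and 27 were tested. Of the 27, 12 passed the F test, beside 31.9% of all genes, and 18 with a weight per library, beside 51.4%. Against Blood 1 rose in Spleen (0.477% of all genes rose), 1 rose and 1 fell in Lung (5.27% and 1.02%), 5 rose and 5 fell in Intestine (15.8% and 10.1%) and 3 rose and 3 fell in Skin (5.64% and 10.4%), and none passed in BM. The subunits of the complex on which CIITA docks gave no call: Rfx5, Rfxap and Rfxank had limma adjusted F test p-values of 0.1341, 0.3841 and 0.5734, and the NF-Y genes Nfya, Nfyb and Nfyc 0.4971, 0.2137 and 0.4526. A p that misses the threshold does not show equal levels, and Rfx5 ranged from 4.27 ± 1.96 (SD, n = 3) in Blood to 30.1 ± 8.42 in the Spleen.

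Among the proteases of endosomes and lysosomes on the list, calls went in both directions. Ctsl, which encodes cathepsin L, stood at 72.6, 50.8 and 49.1 in Blood, 424, 516 and 623 in the Intestine and 324, 9.74 and 316 in Skin, and was higher in Intestine than in Blood by 3.16 (adjusted p = 0.00717, limma). Lgmn, the gene of asparaginyl endopeptidase, stood at 19.8, 15.5 and 24.2 in Blood and 170, 198 and 331 in the Intestine, a difference of 3.45 (0.002111). In Skin, at 87.3, 17.1 and 278, Lgmn spread over the Blood range, and Skin replicate 2 was the low library of both genes. Ctsb, cathepsin B, was higher in Skin than in Blood by 1.56 (adjusted p = 0.03219, limma), from 338, 419 and 277 to 485, 2541 and 823. Outside the rule for named genes, and named after their values were seen, Ctsd and Ctss also passed the F test (limma adjusted p = 0.04724 and 0.01007). Ctsd, cathepsin D, fell by 2.39 in the Intestine (limma adjusted p = 0.005001), from 680, 590 and 587 in Blood to 105, 124 and 123. Ctss, cathepsin S, passed in no tissue against Blood.

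The named transcription factors of the list split. Irf8, which myeloid and B cells use, stood at 1.14, 5.39 and 2.66 in Blood, 73.0, 53.4 and 90.2 in the Spleen, 116, 61.2 and 68.9 in the Intestine and 21.9, 47.8 and 39.7 in Skin, and rose by 4.28, 4.44 and 3.28 (limma adjusted p = 0.02568, 0.0009564 and 0.01725). Spi1, which encodes the myeloid factor PU.1, fell by 3.67 in the Intestine (3.821e-05) and by 1.75 in Skin (0.02731), from 483, 769 and 580 in Blood to 26.1, 59.4 and 63.2 in the Intestine and 72.2, 264 and 293 in Skin. Intestine and Skin, where the displayed chains were highest on average, had the lowest mean levels of Spi1.

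**Figure D5:**
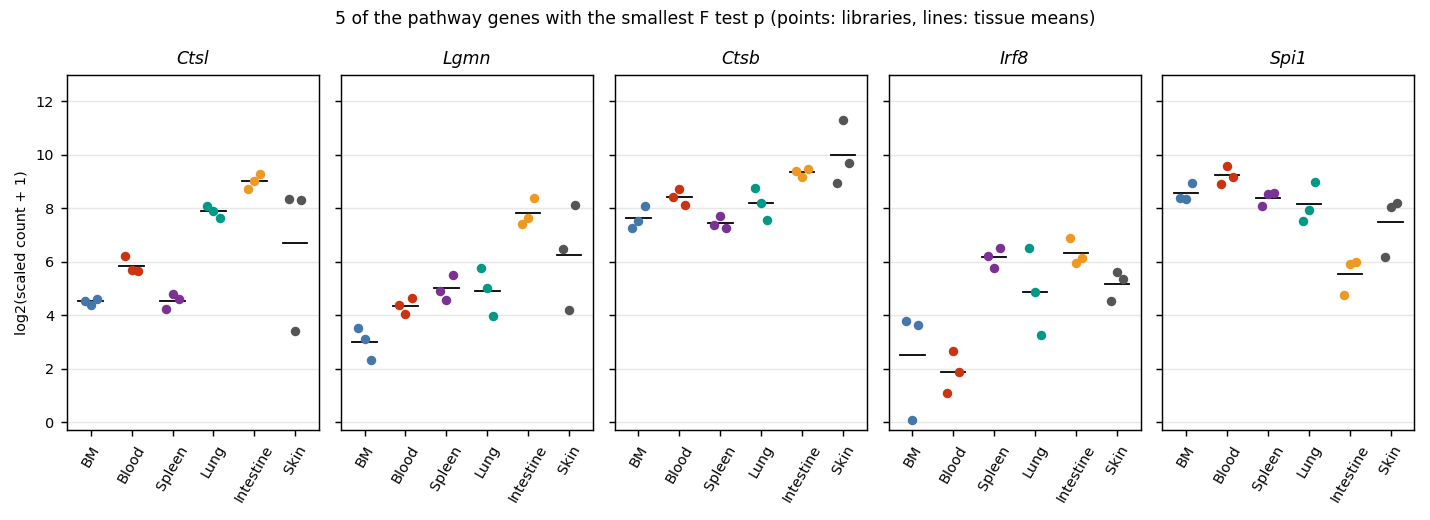
Level of 5 of the pathway genes with the smallest F test p among those that passed, as log2(scaled count + 1), with 1 point for each library and a line at each tissue's mean on that scale. Ctsl and Lgmn are highest in Intestine, Irf8 is low in Blood and BM, and Spi1 is highest on average in Blood.

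The genes most like the 4 displayed and invariant chain genes were taken by Pearson's r of log2 values with their mean. Over 18 libraries the first 10 were Hspe1 (0.948), Specc1l (0.940), Ppia (0.932), Npm1 (0.931), Eif3b (0.929), Anp32e (0.927), Ccdc50 (0.920), Itpr3 (0.920), Rps3a1 (0.919) and Gm15500 (0.918), a pseudogene. Hspe1 and Ppia encode a mitochondrial chaperonin and cyclophilin A, Npm1 a nucleolar protein, and none of the 10 was on a marker list used here. Over the 15 libraries without Spleen the first was Mrc1 (0.975), the macrophage mannose receptor, followed by Hsp90ab1, Hspe1, Specc1l, Tuba1b and Ppia (0.954 to 0.944). Mrc1 stood at 1.50, 0.599 and 0.781 in Blood, 34.4, 44.3 and 12.6 in BM, 468, 283 and 537 in the Intestine and 459, 1912 and 673 in Skin. Skin replicate 2 was its highest Skin library, as for Cd74 and H2-Aa. For H2-Ab1, H2-Eb1 and the macrophage marker C1qa the same library was the lowest of Skin.

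Those most like Ciita over 18 libraries were St6gal1 (0.882), Gimap4 (0.863) and Sfxn1 (0.861), with St6gal1 a sialyltransferase known from B cells. Those most like H2-Ob, a comparison added after the values were seen, were Gimap3 (0.941), Fcrla (0.902), Snn (0.874), Pax5 (0.872), Spib (0.870) and Cd79a (0.862), of which Fcrla, Pax5 and Cd79a are on the B cell list. All were ranked over the same libraries that gave the members' levels.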

How the data were processed

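One signal per gene and library was deposited. The authors' values are read as (estimated count + 0.5) over an effective library size, on the scale of CPM: they carry no gene length, although the table is named as TPM. CASAVA, RSEM 1.3.1, limma and mm10 are named, without roles or order, per the submitters' processing notes. Estimated counts were recovered from each library's floor. Of the values above it 55.7% came out whole (tolerance 0.01), so no count test was run, and estimates were rounded for the counting intervals. GENCODE vM21 gave symbols and positions for 31899 of the 32328 identifiers, and 429 had none.

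The 16157 genes with 3 or more libraries at 1 or above were fitted with limma 3.58.1 in R 4.3.3 on log2(value + 1), which understates changes of low genes, with 6 tissue means, a trended prior and Benjamini-Hochberg adjustment at 0.05. Alternatives were pseudocounts of 0.5 and 5, 2 other filters, quantile and median-of-ratios scaling, weights per library, no Skin, only the libraries compared, a replicate block and each library left out. Other values came from Python 3.11.15 with pandas 2.3.3. The members, lists and tests were chosen with earlier results of these data known. All 10 members are named, with 6 pathway genes by F test p, of which 1 is not reported here, and the RFX and NF-Y genes, and the genes most like the members by r. The script was tested on simulated counts. A first requirement, on the share of changed genes found at a wide spread, failed and was replaced by limits on wrong signs and false calls and on recovery at a narrower spread, and the design was kept.

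Replicate numbers were treated as names only in the main fit. Over 45 pairs of same-numbered libraries of different tissues the correlation of deviations was -0.06 to 0.11. Such values cannot decide whether same-numbered libraries share an animal or a batch. Depth was 2935580 to 12087900 estimated counts per library, and intervals cover counting error only, since amplified reads are not independent molecules.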

Additional observations from a re-analysis of the deposited data

How the results depend on the processing

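The 19 member calls against Blood kept their direction in all 299 alternative values and passed in 289; 9 of the 10 lost calls were H2-DMb1 in Skin and the other H2-Aa in Skin with only the libraries compared (0.05853). The 21 calls between other tissues kept their direction in 323 values and passed in 254. With a weight per library members passing against Blood were 10 in Spleen, 4 in BM and 8 in Lung, and calls between other tissues 34. Without the Skin libraries they were 9 in Spleen and 3 in BM, and calls over the 6 pairs without Blood and Skin 19 against 8. With only the libraries compared they were 3 in Skin and 13 between other tissues, and the share of all genes in that setting is not given here. Calls over all genes moved with the setting too. Of 16157 genes the F test called 5159 in the main fit, 8306 with weights and 6393 without Skin. With a library left out it called 4269 to 6502. These member counts alone thus cannot tell a change in the members from one in all genes. With single libraries left out the F test gave 8 to 9 members, Spleen 4 to 7, BM 0 to 2 (1 without BM replicate 3 or Blood replicate 3), Lung 4 to 5, Intestine 6 to 7, Skin 4 to 5 and the other pairs 15 to 26. The replicate block changed none of the 7 counts: 9 by F test, 4, 0, 4, 6 and 5 against Blood in Spleen, BM, Lung, Intestine and Skin, and 21 between other tissues. Differences that reversed had not passed. The difference of Ciita, Skin against Blood, was 0.52 with weights and ranged from -1.77 to 0.32 with a library left out, at 0.01, 0.09 and 0.32 without Blood replicate 1, Skin replicate 1 and Skin replicate 2. H2-DMb1 in BM ranged from -0.42 to 0.57 (below 0 without BM replicate 1, Blood replicate 1 or Blood replicate 2, at -0.42, -0.08 and -0.02). H2-Oa ranged from -0.0037 to 0.38 in BM and from -0.011 to 1.25 in Intestine, below 0 without BM replicate 1 and Intestine replicate 3. The cause was not tested. Depth limits H2-Oa and, in Skin, H2-Ob and H2-DMb2, which stood at or near the count a zero allows.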
